A study of Mus musculus with 6 samples.

Results

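The genes described here are 8 enzymes of folate-bound carbon metabolism and serine synthesis, Aldh1l2, Mthfd2, Mthfd1l, Shmt2, Mthfd1, Shmt1, Phgdh and Psat1. They were taken by symbol, and 8 of the 11881 genes with deposited counts are these members. The list was drawn up around Aldh1l2, which had been picked because its counts differed between the genotypes, to see whether its pathway partners followed it. The genotype difference of Aldh1l2, and the directions of the members beside it, are therefore given as descriptions without a test.

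RNA came from hippocampal microglia, the resident macrophages of the brain, sorted as CD11b+CD45low cells from male mice at postnatal days 17 to 21. There were 3 Mll5+/- mice, which carry 1 disrupted copy of Mll5 (now Kmt2e), and 3 WT mice, and each library was taken as 1 mouse. The sources used here do not give the part of the gene that is disrupted, the way the allele was made or the strain. The libraries are bulk samples, so fewer cells of a type and less RNA per cell cannot be told apart.

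Cells attach single carbon units to folate, mostly taking them from serine, and pass them on to purines, thymidylate and methionine. In mitochondria, SHMT2 moves a carbon from serine to folate and makes glycine, MTHFD2 oxidises the carbon to the formyl level, MTHFD1L releases it as formate, and ALDH1L2 can instead oxidise it to CO2 while making NADPH. In the cytosol, SHMT1 catalyses the same exchange as SHMT2, and MTHFD1 carries out the interconversions with a single polypeptide. Serine itself is made from a glycolytic intermediate by PHGDH, PSAT1 and PSPH in turn, a route that is prominent in astrocytes in the brain. The transcription factor ATF4 is known to raise several of these genes when amino acids run short.

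The libraries held between 21075570 and 29730400 counts, so that 3 counts, the limit that a count of 0 allows, correspond to between 0.104 and 0.142 CPM (counts scaled to a common library size by TMM, as everywhere below). Intervals and limits of this kind cover counting error only, not the spread between mice. Reads copied by PCR carry no molecular identifier that would tell them apart, so the true counting error may be larger. Kmt2e, the targeted gene, had 648, 298 and 513 CPM in the Mll5+/- libraries and 479.5, 378 and 688 CPM in the WT libraries, so whole-gene counts did not separate the labelled genotypes. Mll5+/- replicate 3 stood somewhat apart, with Spearman correlations across genes of 0.840 to 0.860 with the other libraries, where all other pairs had 0.873 to 0.907. Results that rest on it are given with and without it.

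Aldh1l2, on chromosome 10 from 83323314 to 83370004 (mm39), had 157, 495 and 80 counts in the Mll5+/- libraries, against 0, 4 and 0 counts in the WT libraries. These are 6.19, 17.4 and 3.78 CPM in Mll5+/- microglia and 0, 0.154 and 0 CPM in WT microglia. All 3 Mll5+/- libraries lay above all 3 WT libraries, and the highest Mll5+/- library had 4.60 times the CPM of the lowest. Summed over libraries, 732 counts in Mll5+/- against 4 in WT give a ratio of 192, with an exact 95% binomial interval from 74.7 to 707 that covers counting error only. The fitted log2 fold change (Mll5+/- minus WT) was 7.35 (SE 1.82, edgeR). Aldh1l2 passed the low-count filter through the Mll5+/- libraries alone, so it had to differ once it was kept.

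Over all 11881 genes, Aldh1l2 was the 1 gene with at most 4 counts in total in WT and at least 80 counts in every Mll5+/- library. The reverse pattern, at most 4 counts in total in Mll5+/- and at least 80 in every WT library, was also met by 1 gene, Shisa4. Both limits were set from the values of Aldh1l2 itself. In edgeR's quasi-likelihood test of all 10832 filtered genes, 0 genes (0%) passed an adjusted p of 0.05, and 312 had an unadjusted p under 0.05. DESeq2 called 29 genes (0.255%), 11 of them higher (0.0967%) and 18 lower (0.158%) in Mll5+/-, and limma-voom called 0, with 467 genes under an unadjusted p of 0.05. DESeq2 called 0 of the other 7 members.

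The last exon of Aldh1l2 overlaps a neighbour, Nopchap1, by 1056 bases in the deposited coordinates. In GENCODE M21 (GRCm38), where that neighbour is annotated as D10Wsu102e with the same span of 128285 bases and the same overlap, it lies on the opposite strand, and the overlap falls in the 3′ UTR of Aldh1l2. Of the 50-base stretches in the protein-coding transcripts of Aldh1l2, 16.7% also occur in transcripts of the neighbour. The sources used here do not say whether counting used strand, so reads from the overlap cannot be told apart. Nopchap1 had 15.3, 35.1 and 42.8 CPM in the Mll5+/- libraries and 27.7, 22.5 and 30.3 CPM in the WT libraries. Its genotypes overlapped, and it had 662, 585 and 874 counts in the WT libraries in which Aldh1l2 had 0, 4 and 0. The part that reads of Nopchap1 play in the Aldh1l2 counts was not tested. Washc4, the next listed gene 9800 bases beyond the other end of Aldh1l2, had 494, 329 and 521 CPM in Mll5+/- and 491, 392 and 383 CPM in WT, and also overlapped. These neighbours were chosen by position after the values were seen.

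**Figure D1:**
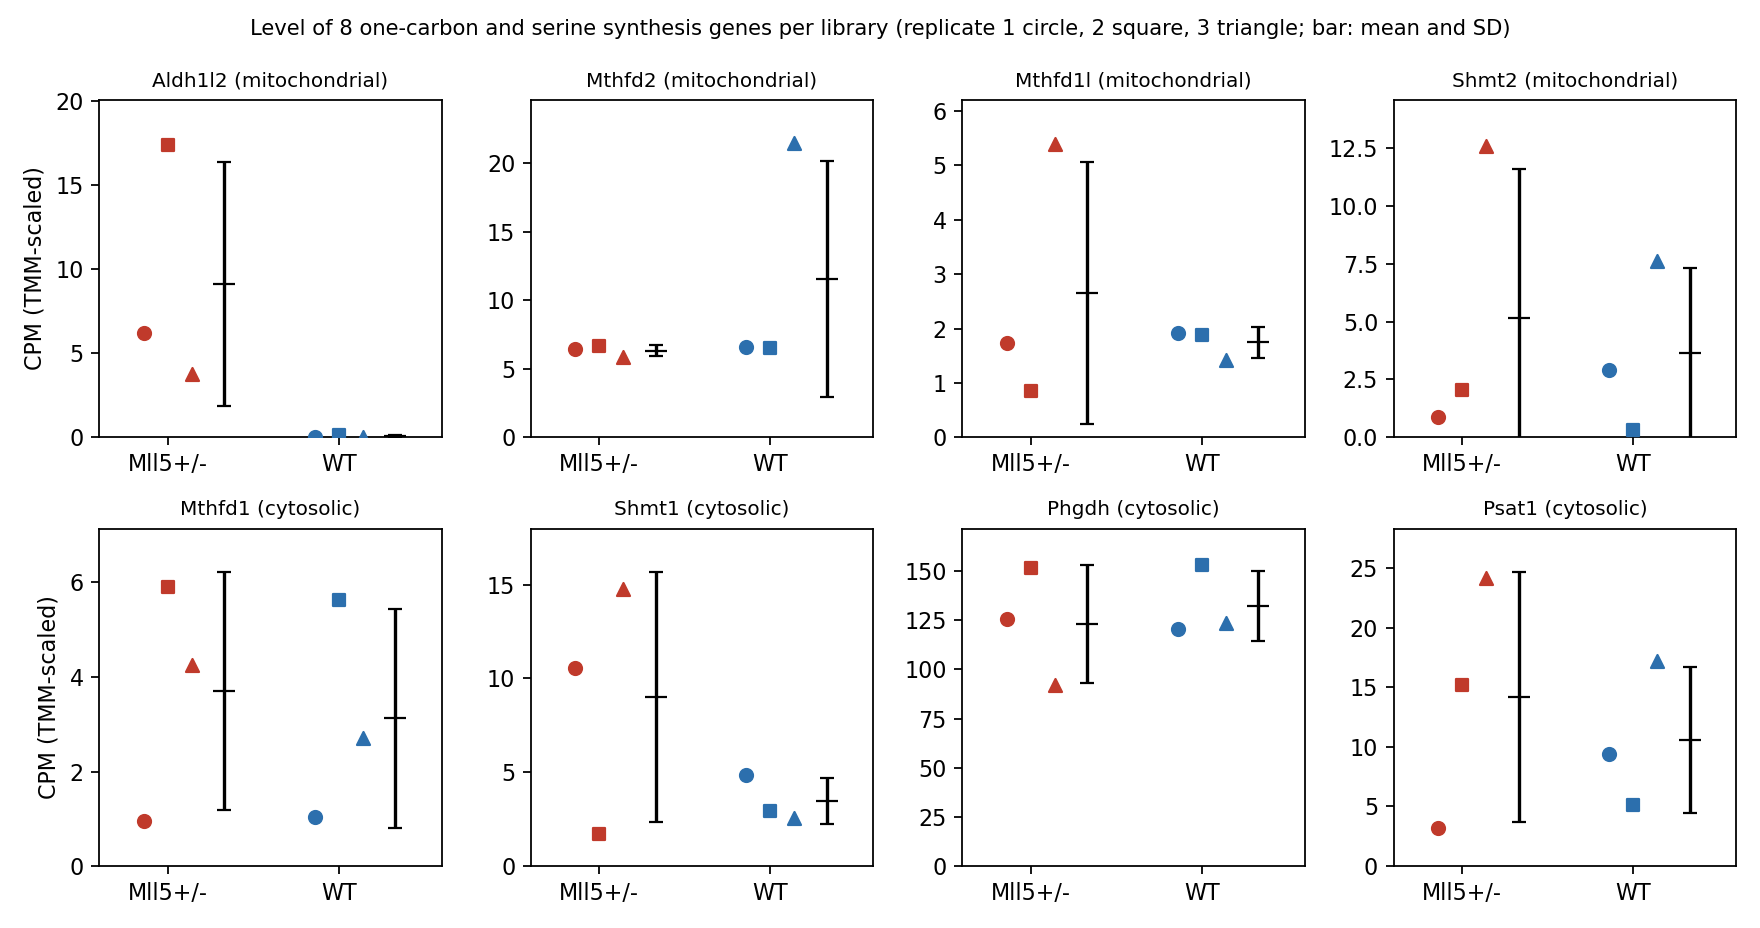
CPM of each of the 8 genes per library on linear axes that start at 0 and differ between panels, with Mll5+/- libraries in red on the left, WT libraries in blue on the right, and the mean and SD (n = 3) as a bar that is cut at 0. Aldh1l2 has all Mll5+/- points above all WT points, while the points of the other 7 genes overlap.

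None of the other 7 members was separated between the genotypes. Their CPM ranges overlapped in 7 of 7 cases, where 9.32% of all tested genes had no overlap (4.68% higher and 4.64% lower in Mll5+/-). Of the 7, 5 had a positive and 2 a negative log2 fold change, with a median of 0.42. Over all tested genes 51.8% were positive and the median was 0.02. Without Mll5+/- replicate 3, 3 of the 7 were positive and 4 negative, so the majority direction of the partners depended on that library. It also depended on the test, since limma-voom on all libraries gave negative values for Mthfd1l (-0.18) and Mthfd1 (-0.06) as well. With limma-voom, 4 of the 8 members were positive, Aldh1l2 among them.

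Shmt2, the mitochondrial serine hydroxymethyltransferase (chromosome 10 from 127352992 to 127358313), had 0.868, 2.04 and 12.6 CPM in the Mll5+/- libraries and 2.93, 0.308 and 7.63 CPM in the WT libraries. The libraries of both genotypes spread over the same range, from 22 to 266 counts in Mll5+/- and from 8 to 220 counts in WT. Its log2 fold change was 0.51 (SE 1.43), and it was -1.33 without Mll5+/- replicate 3.

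Mthfd2, the dehydrogenase and cyclohydrolase that acts after SHMT2 (chromosome 6 from 83282673 to 83302890), had 6.47, 6.64 and 5.86 CPM in the Mll5+/- libraries and 6.61, 6.50 and 21.5 CPM in the WT libraries. Of the 6 libraries, 5 lay within 5.86 to 6.64 CPM, and WT replicate 3 alone lay far above them. The log2 fold change of -0.87 (SE 0.72) came to -0.05 without WT replicate 3.

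Mthfd1l, the mitochondrial formate-releasing synthetase (chromosome 10 from 3923118 to 4117081), had 1.74, 0.843 and 5.39 CPM in the Mll5+/- libraries and 1.92, 1.89 and 1.42 CPM in the WT libraries. The WT libraries lay close together, and the Mll5+/- libraries held both the lowest and the highest value. Its log2 fold change was 0.60 (SE 1.40), and -0.45 without Mll5+/- replicate 3. Over the 6 libraries none of these 3 mitochondrial partners was highest in Mll5+/- replicate 2, where Aldh1l2 was highest. Within Mll5+/- alone, Mthfd2 was highest there, at 6.64 CPM against 6.47 and 5.86 CPM.

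Of the cytosolic folate enzymes, Shmt1 (chromosome 11 from 60678930 to 60702091) had 10.5, 1.69 and 14.7 CPM in the Mll5+/- libraries and 4.85, 2.92 and 2.57 CPM in the WT libraries. Mll5+/- replicates 1 and 3 lay above all WT libraries, and Mll5+/- replicate 2 lay below them. The log2 fold change was 1.38 (SE 0.97), the largest of the 7 partners, with a 95% interval from -0.81 to 3.58. Without Mll5+/- replicate 2 the genotypes of Shmt1 no longer overlapped, nor did those of Mthfd2 in the direction of lower levels in Mll5+/-. In that setting of 2 against 3 libraries, 21.1% of all tested genes had no overlap, 10.1% with higher and 11% with lower levels in Mll5+/-. The library in which Aldh1l2 was highest was thus the one in which Shmt1 was lowest. Smcr8 overlaps the end of Shmt1 by 184 bases in the deposited coordinates, and 4.66% of the 50-base stretches of Shmt1 are shared with its transcripts.

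Mthfd1, the trifunctional cytosolic enzyme (chromosome 12 from 76302072 to 76366577), had 0.947, 5.90 and 4.25 CPM in the Mll5+/- libraries and 1.05, 5.62 and 2.71 CPM in the WT libraries. Each genotype held a library near 1 CPM and a library near 6 CPM. The highest value of Mthfd1 was in Mll5+/- replicate 2, as for Aldh1l2. Its log2 fold change was 0.24 (SE 1.27).

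Phgdh, which catalyses the first committed step of serine synthesis (chromosome 3 from 98220486 to 98247306), had 126, 152 and 92.1 CPM in the Mll5+/- libraries and 120.5, 153 and 124 CPM in the WT libraries. It was the steadiest of the members, with means of 123 ± 29.8 CPM in Mll5+/- and 132 ± 18.0 CPM in WT (SD, n = 3 each). Its log2 fold change of -0.10 (SE 0.26) had a 95% interval from -0.69 to 0.48, and it was 0.06 without Mll5+/- replicate 3. Of the 50-base stretches of Phgdh, 61.3% also occur in transcripts of processed pseudogenes, so its counts are uncertain where reads could be split among copies. Psat1, the aminotransferase of the next step (chromosome 19 from 15882042 to 15924701), had 3.23, 15.2 and 24.1 CPM in the Mll5+/- libraries and 9.45, 5.16 and 17.2 CPM in the WT libraries. The Mll5+/- values of Psat1 lay on both sides of the WT values, and its log2 fold change was 0.42 (SE 0.80), or -0.22 without Mll5+/- replicate 3.

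**Figure D2:**
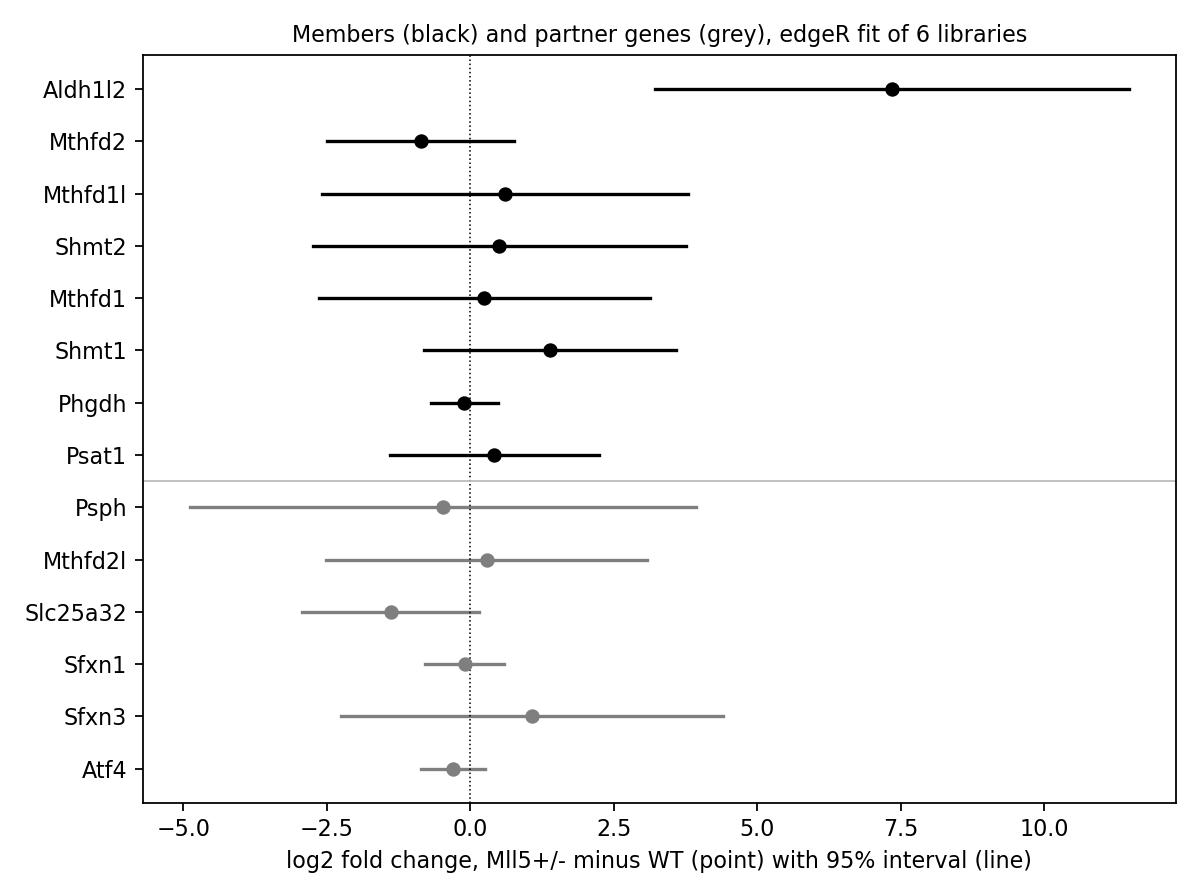
Log2 fold change (Mll5+/- minus WT, points) with its 95% interval (lines) from the edgeR fit of 6 libraries, for the 8 members in black and 6 partner genes in grey. Aldh1l2, which was chosen for its difference, lies at 7.35, and the 13 other genes lie between -1.39 and 1.38 with intervals that include 0.

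The spread within a genotype was wide for most members. The larger of the ratios of highest to lowest CPM within a genotype was 24.8 for Shmt2, 8.75 for Shmt1, 7.47 for Psat1, 6.39 for Mthfd1l, 6.23 for Mthfd1, 3.30 for Mthfd2 and 1.65 for Phgdh. For Aldh1l2 it has no value, since 2 WT libraries were at 0. Over the 3415 tested genes with a mean between 2.20 and 12.4 CPM, the range of the 6 members other than Aldh1l2 and Phgdh, the median of this ratio was 8.20 (quartiles 3.79 and 72.6). Spread of this size between libraries was thus common among genes at these levels. The biological coefficient of variation over all tested genes was 80.4%. Over all tested genes the median of this ratio was 3.27 (quartiles 1.91 and 12.7). Very low counts in single libraries also occurred among genes of higher levels. Mcl1 had 9691, 7686 and 17 counts in the Mll5+/- libraries and 7747, 26 and 9227 counts in the WT libraries. Mier3 had 5613, 4222 and 4009 counts in Mll5+/- and 23, 4441 and 15 counts in WT. They were picked for this pattern, and its frequency and part in the Aldh1l2 counts were not tested.

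Within enzyme pairs, the share of counts moved between libraries without following the genotype. Shmt2 took 7.61%, 54.7% and 46.0% of the counts of Shmt1 and Shmt2 together in the Mll5+/- libraries, and 37.6%, 9.52% and 74.8% in the WT libraries. The 95% Wilson interval, which covers counting error only and not the spread between mice, ran from 5.08% to 11.3% in Mll5+/- replicate 1 and from 69.6% to 79.4% in WT replicate 3. Mthfd1l took 64.7%, 12.5% and 55.9% of the counts of Mthfd1 and Mthfd1l in the Mll5+/- libraries, and 64.8%, 25.1% and 34.5% in the WT libraries. Psat1 took 2.50%, 9.12% and 20.8% of the counts of Phgdh and Psat1 in the Mll5+/- libraries, and 7.27%, 3.26% and 12.2% in the WT libraries. In each pair the genotypes overlapped. Such shares depend on transcript length and are compared only between libraries, not between genes.

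**Figure D3:**
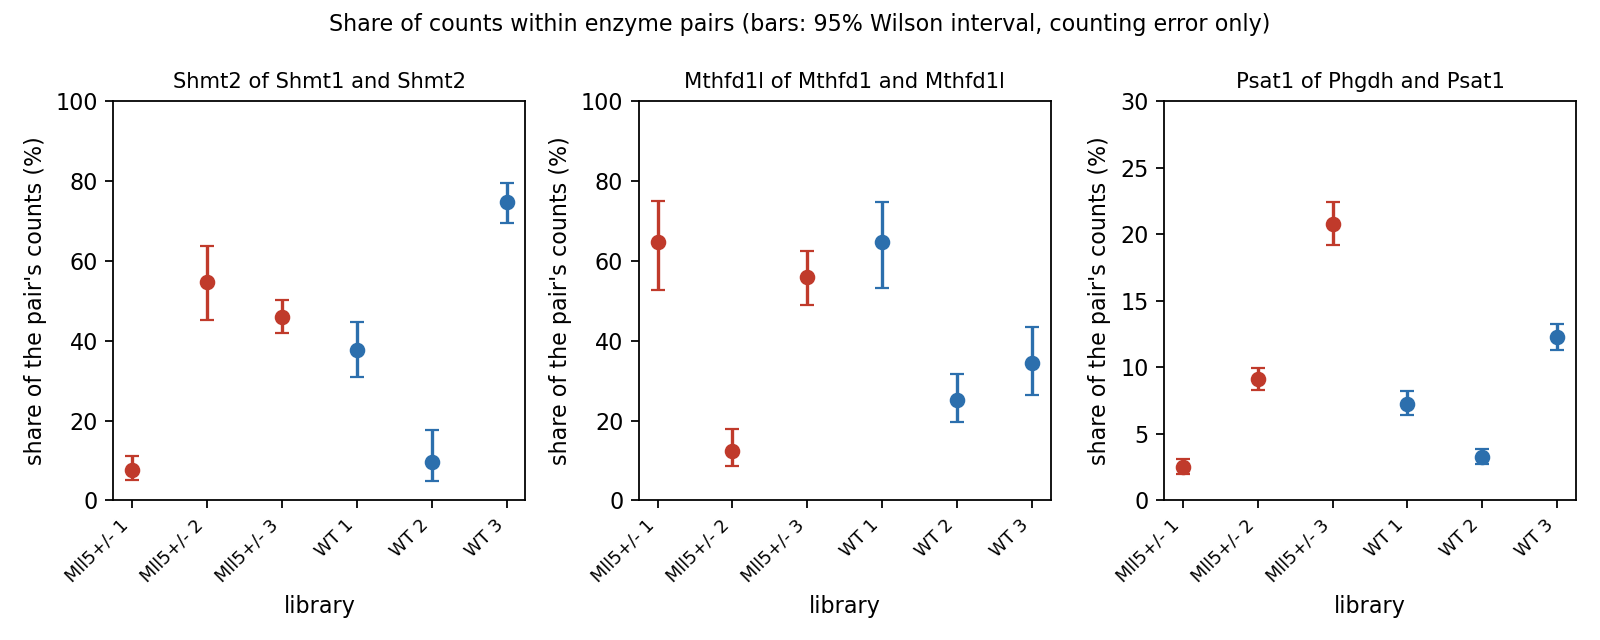
Share of a pair's counts (percent) taken by Shmt2, Mthfd1l and Psat1 in each library, Mll5+/- in red and WT in blue, with 95% Wilson intervals that cover counting error only; the axis of the Psat1 panel ends at 30%. The shares of Shmt2 run from 7.61% to 74.8% and overlap between the genotypes.

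The promoters of both pairs with the clearest contrast in spread are printed here, Phgdh with Psat1 and Shmt1 with Shmt2, as the 250 bases before the RefSeq transcription start (GRCm38.p6, all 4 on the minus strand). Capitals mark CCAAT, read on either strand, the core of the box bound by NF-Y. The windows are chr3:98339970-98340219, chr19:15925060-15925309, chr11:60811266-60811515 and chr10:127522445-127522694, in the order printed.
Phgdh: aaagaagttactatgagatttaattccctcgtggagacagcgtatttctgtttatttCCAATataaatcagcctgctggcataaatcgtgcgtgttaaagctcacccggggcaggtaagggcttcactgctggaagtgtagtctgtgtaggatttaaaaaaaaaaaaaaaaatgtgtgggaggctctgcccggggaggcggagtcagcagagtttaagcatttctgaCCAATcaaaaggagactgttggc
Psat1: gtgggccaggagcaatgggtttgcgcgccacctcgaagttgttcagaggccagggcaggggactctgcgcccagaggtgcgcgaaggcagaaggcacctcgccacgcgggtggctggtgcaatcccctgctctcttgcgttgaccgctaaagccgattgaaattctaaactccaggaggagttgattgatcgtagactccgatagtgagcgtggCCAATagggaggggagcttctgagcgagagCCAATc
Shmt1: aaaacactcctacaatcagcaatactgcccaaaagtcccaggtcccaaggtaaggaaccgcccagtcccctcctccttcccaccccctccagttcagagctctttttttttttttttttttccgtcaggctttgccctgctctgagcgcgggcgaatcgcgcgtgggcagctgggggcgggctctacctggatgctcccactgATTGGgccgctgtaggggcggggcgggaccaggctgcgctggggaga
Shmt2: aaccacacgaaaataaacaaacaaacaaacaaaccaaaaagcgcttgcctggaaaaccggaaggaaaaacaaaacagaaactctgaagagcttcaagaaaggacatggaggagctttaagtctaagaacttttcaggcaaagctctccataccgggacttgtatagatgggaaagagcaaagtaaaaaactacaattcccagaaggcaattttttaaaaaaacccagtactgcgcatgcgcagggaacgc
RefSeq windows were at hand for 7 of the 8 members, with 2 starts for Psat1 and thus 8 windows in all, and Aldh1l2 is named only. CCAAT was found on either strand in 5 of the 8 windows, those of Mthfd2, Mthfd1, Shmt1, Phgdh and the Psat1 start shown. It was in 33.8% of all 32851 windows of this length. Because CCAAT was chosen after these windows had been read, its shares are a description and cannot test for an excess. TGATGNAA, the composite element bound by ATF4 with C/EBP factors, was in 0 of the 8 windows and in 3.45% of all windows. CACGTG, the E-box bound by MYC-family and related factors, was in 0 of the 8 and in 6.02% of all. CCAAT does not overlap either of the others. The steady Phgdh and the variable Psat1 and Shmt1 all hold CCAAT, and Shmt2 holds none of the 3 motifs in this window.

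Library by library, the partners differed from Aldh1l2 in their pattern. As a measure of likeness, the Pearson correlation of log2 CPM (prior count 2) with Aldh1l2 over the 6 libraries ran from -0.52 for Mthfd2 to 0.24 for Mthfd1, and 32.2% of all tested genes reached the value of Mthfd1 or more. The 5 tested genes most like Aldh1l2 by this measure were Tagap1, Zkscan2, Ap5b1, Tmco3 and Agk, with values from 0.978 to 0.986. All 5 were higher in every Mll5+/- library than in any WT library, and within Mll5+/- all but Tmco3 had their highest CPM in replicate 2. Their sizes differed widely, from Zkscan2 with 85, 210 and 26 counts in Mll5+/- and 0 counts in each WT library to Tagap1 with means of 464 CPM in Mll5+/- and 411 CPM in WT. Among the partners, Mthfd2, Mthfd1 and Phgdh also had their highest Mll5+/- CPM in replicate 2. With 6 points in 2 groups, the correlation mostly reflects the split between genotypes, and it is a description.

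**Figure D4:**
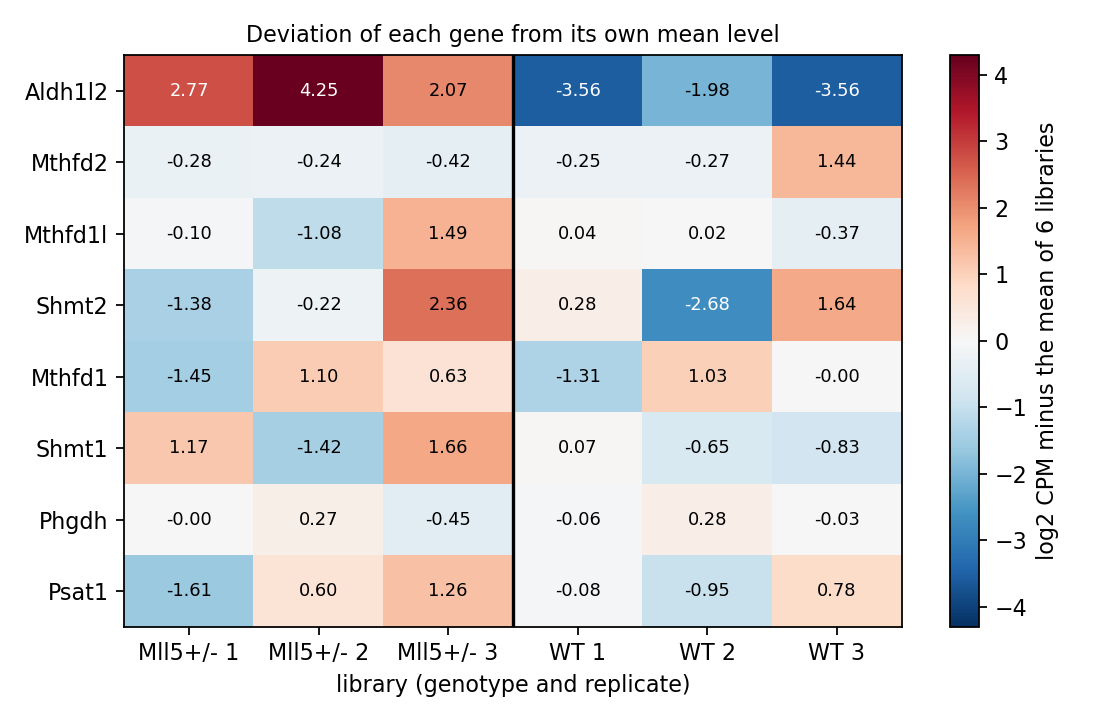
Log2 CPM of each member in each library minus the gene's mean over the 6 libraries (prior count 2), with Mll5+/- libraries left of the line and WT libraries right of it. Aldh1l2 runs from 2.07 to 4.25 in Mll5+/- and from -3.56 to -1.98 in WT, while in each other row the values of the genotypes overlap.

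The direct partners of the members had log2 fold changes of both signs, and none passed an adjusted p of 0.05 in edgeR. Slc25a32, the carrier that brings folate into mitochondria, had 6.75, 5.37 and 3.50 CPM in the Mll5+/- libraries and 18.3, 15.9 and 6.77 CPM in the WT libraries. The genotypes did not overlap at TMM-scaled library sizes, by a margin of 6.75 against 6.77 CPM, but they overlapped at plain totals (6.77 CPM in Mll5+/- replicate 1 against 6.56 CPM in WT replicate 3), and edgeR gave a log2 fold change of -1.39 with SE 0.68 (unadjusted p = 0.0712). Mthfd2l, a mitochondrial paralog of Mthfd2, had 10.1, 0.808 and 2.41 CPM in Mll5+/- and 3.22, 5.77 and 1.98 CPM in WT. Psph, the phosphatase that completes serine synthesis, had 54, 42 and 0 counts in Mll5+/- and 34, 79 and 17 counts in WT, and 20.8% of its 50-base stretches are shared with overlapping Cct6a. Both overlapped between the genotypes.

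The mitochondrial serine carrier Sfxn1 had 56.5, 65.8 and 54.0 CPM in the Mll5+/- libraries and 46.4, 64.9 and 77.8 CPM in the WT libraries. Its paralog Sfxn3 had 626, 237 and 5 counts in Mll5+/- and 52, 16 and 375 counts in WT, and both genes overlapped between the genotypes. Atf4, the stress-responsive transcription factor, had 171, 163 and 122 CPM in Mll5+/- and 144, 204 and 213 CPM in WT, with a log2 fold change of -0.30 (SE 0.25). Atf5 did not pass the low-count filter, and Aldh1l1, the cytosolic counterpart of Aldh1l2, and Gldc were not analysed here.

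Across the 6 wider lists, without the members, 108 of 142 gene names were tested, and 0 passed the adjusted threshold in either direction. Of the 108, 5 (4.63%) had an unadjusted p under 0.05 in edgeR, 4 higher and 1 lower in Mll5+/-, where 2.88% of all tested genes did (1.36% higher and 1.52% lower). Levels of 12 of the 108 (11.1%) did not overlap between the genotypes, 8 higher and 4 lower, against 9.32% of all tested genes. The median log2 fold change was 0.02, the same as over all tested genes at this precision.

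The folate cycle and transport list had 15 tested genes, 10 of them with a positive log2 fold change, and a median of 0.13. Tyms, thymidylate synthase, which uses a folate-bound carbon to make the thymine nucleotide of DNA, had 20.2, 3.37 and 2.98 CPM in the Mll5+/- libraries and 29.2, 12.5 and 17.7 CPM in the WT libraries. Its genotypes overlapped, with means of 8.84 ± 9.81 CPM in Mll5+/- and 19.8 ± 8.56 CPM in WT (SD, n = 3 each), and 10.7% of its 50-base stretches also occur in other genes.

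In the list of purine and thymidylate synthesis (median -0.06), 1 of 19 tested genes (5.26%) was under an unadjusted p of 0.05 in edgeR, against 2.88% of all tested genes. It was Rrm1, the large subunit of ribonucleotide reductase, with 43.0, 17.5 and 33.6 CPM in the Mll5+/- libraries against 3.26, 9.47 and 10.2 CPM in the WT libraries. The libraries did not overlap, and edgeR gave a log2 fold change of 2.04 with SE 0.60 (unadjusted p = 0.00833, adjusted p = 0.9995). Adsl, a purine synthesis lyase, had 8.21, 10.2 and 3.97 CPM in Mll5+/- and 12.8, 23.0 and 16.9 CPM in WT, with -1.23 as log2 fold change (SE 0.60, edgeR unadjusted p = 0.0698). Impdh2, of the guanine branch, averaged 6.35 CPM in Mll5+/- and 20.1 CPM in WT, and 67.6% of its 50-base stretches also occur in a processed pseudogene. The genotypes of Adsl did not overlap, and those of Impdh2 did.

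The list of mitochondrial NADPH and redox genes had 3 of 15 tested genes (20%) under an unadjusted p of 0.05 in edgeR. Of these, 2 were at higher and 1 at lower levels in Mll5+/-, and the list median was -0.0018. Over all tested genes 2.88% were under it, 1.36% higher and 1.52% lower. Gsr, glutathione reductase, which consumes NADPH, had 49.3, 62.6 and 59.7 CPM in the Mll5+/- libraries against 27.6, 25.4 and 34.8 CPM in the WT libraries (log2 fold change 0.97 with SE 0.32, edgeR unadjusted p = 0.0141). Nadk2, the mitochondrial NAD kinase, had 80.0, 63.2 and 64.6 CPM in Mll5+/- against 44.2, 7.77 and 26.9 CPM in WT (1.40, SE 0.55, edgeR unadjusted p = 0.0332). Glrx2, a mitochondrial glutaredoxin, had 26.0, 18.6 and 8.32 CPM in Mll5+/- against 42.9, 53.5 and 35.3 CPM in WT (-1.32, SE 0.48, edgeR unadjusted p = 0.0230). The genotypes of all 3 genes, which are named for their small p, did not overlap, and all 3 had an adjusted p of 0.9995 in edgeR. In the whole list 4 of 15 (26.7%) did not overlap, 2 higher and 2 lower in Mll5+/-, against 9.32% of all tested genes.

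The lists of glycine and serine handling, the methionine cycle and the ATF4 response had no gene under an unadjusted p of 0.05. Among 17 tested genes of glycine cleavage and serine handling (median -0.06), Amt, the aminomethyltransferase of the glycine cleavage system, had 152, 177 and 149 CPM in Mll5+/- and 116, 130.3 and 142 CPM in WT, without overlap (log2 fold change 0.30, SE 0.21). Among 15 genes of the methionine cycle and transsulfuration (median -0.02), Adi1 of the methionine salvage pathway had 7.38, 3.23 and 5.53 CPM in Mll5+/- and 1.88, 0.731 and 0 CPM in WT, also without overlap (2.62, SE 1.73). Among 27 ATF4 and amino acid response genes (median 0.18), the libraries of 0 genes were separated by genotype, against 9.32% of all tested genes. Sesn2, a leucine sensor, was at 33.3 CPM in Mll5+/- and 56.4 CPM in WT on average.

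**Figure D5:**
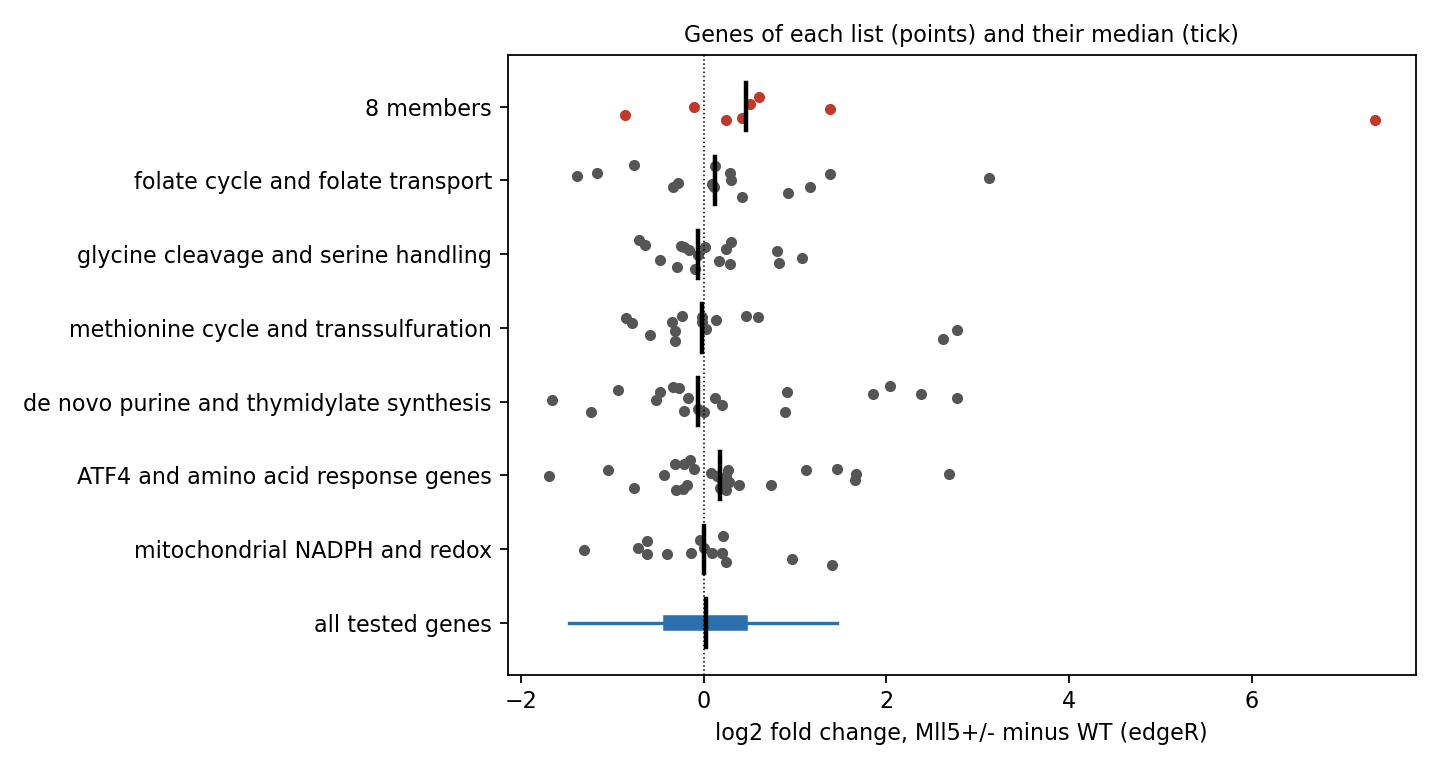
Log2 fold changes (Mll5+/- minus WT, edgeR) of the 8 members in red and of the tested genes of the 6 wider lists in grey, each with its median as a tick; the bottom row gives all tested genes as the 5th to 95th percentile (thin) and the quartiles (thick). The medians of the 6 wider lists lie between -0.06 and 0.18 and that of the 8 members, Aldh1l2 included, at 0.46, against 0.02 for all tested genes. Aldh1l2 lies far right of the other points.

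The summed levels of 3 marker lists did not overlap between the genotypes, though each did with 1 gene left out, and their part in the level of Aldh1l2 was not tested. The summed CPM of 6 border-associated macrophage markers was 417, 369 and 692 in the Mll5+/- libraries and 322, 328 and 265 in the WT libraries, with 5 of 5 tested markers at positive log2 fold changes, 0 of them under an unadjusted p of 0.05 in edgeR and 0 without overlap. Without Mrc1 or without Stab1 the sums overlapped. In Mll5+/- replicate 2, where Aldh1l2 was highest, the sum of all 6 was the lowest in Mll5+/- but above every WT library. How these 2 levels are related was not tested. The sum of 8 microglial markers ran from 5964 to 6845 CPM in Mll5+/- and from 7147 to 11402 CPM in WT. Of the 8, 3 had a positive log2 fold change and the median was -0.09. P2ry12, a purinergic receptor that marks resting microglia, had 1115, 1232 and 1087 CPM in Mll5+/- and 4269, 1366 and 5499 CPM in WT, and DESeq2 called it lower in Mll5+/-. Without P2ry12 the sums overlapped, at 4877 to 5613 CPM in Mll5+/- and 5350 to 5902 CPM in WT, as they did without Cx3cr1. Tmem119, another microglial marker, was higher in every Mll5+/- library than in any WT library. The sum of 6 oligodendrocyte markers ran from 98.2 to 135 CPM in Mll5+/- and from 140.3 to 185 CPM in WT, with 0 of 5 tested markers without overlap, and the sums overlapped without Cnp. Astrocyte markers, relevant to Phgdh, summed to 269, 559 and 371 CPM in Mll5+/- and to 481, 400.3 and 575 CPM in WT over 9 of 14 markers, and Gfap, Gjb6, Fgfr3, Cldn10 and Mlc1 were not analysed here. Of the 9, 4 had a positive and 5 a negative log2 fold change, with a median of -0.27. In edgeR, 2 (22.2%) were under an unadjusted p of 0.05, both at lower levels in Mll5+/-. Over all tested genes 2.88% were under it, 1.52% at lower levels. DESeq2 called Gja1, a gap junction gene of astrocytes, lower in Mll5+/-. The sums of neuron (182 to 217 CPM in Mll5+/-, 183 to 245 CPM in WT), monocyte and neutrophil (222 to 278 and 196 to 256 CPM), endothelial and mural (13.2 to 23.3 and 13.5 to 29.4 CPM), oligodendrocyte progenitor (0 to 5.20 and 0 to 14.7 CPM), ependymal and choroid (0 to 122 and 20.6 to 101 CPM) and lymphocyte markers (129 to 207 and 158 to 233 CPM) overlapped, each with Mll5+/- before WT. Of the endothelial markers, DESeq2 called Flt1 lower in Mll5+/-. Flt1 had 0 counts in each Mll5+/- library and 0, 101 and 457 counts in the WT libraries. It did not pass the low-count filter for edgeR, and its genotypes overlapped at 0 counts. The 2 tested markers of this list, Pecam1 and Kdr, had edgeR log2 fold changes of 0.85 (SE 0.71) and -0.09 (SE 0.90). The 5 erythrocyte markers were not analysed here.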

How the data were processed

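RNA-seq was analysed from sorted hippocampal microglia of 6 mice. The authors deposited whole-number counts per gene symbol with mm39 coordinates. TRIzol extraction, SMART-seq amplification and a transposase library kit were used, per the labels' protocols. The tools named per the submitters' processing notes are STAR, StringTie, FastQC and DESeq2, and the sources used here give neither their versions nor how strand was treated in counting.

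Groups follow the labelled genotype, and replicate numbers follow sample order. Genes were kept with filterByExpr (minimum count 10, minimum total 15), which left 10832 of 11881, all 8 members included. Genes were tested by quasi-likelihood in edgeR, with TMM scaling and robust dispersion estimates (edgeR 4.0.16, limma 3.58.1, DESeq2 1.42.0, R 4.3.3), Mll5+/- minus WT, two-sided, with Benjamini-Hochberg adjustment over all tested genes and a threshold of 0.05. Each SE and 95% interval was derived from the log2 fold change and the F value of its gene, with a prior count of 0.125. Each library carries a separate number in the labels and was taken as 1 mouse; p-values measure the spread between these libraries.

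The members and all gene lists (6 pathway and 11 marker lists) were chosen with earlier results of these data known. Named genes are the members, Kmt2e, fixed partners, up to 3 genes of smallest p per pathway list, and the genes most like Aldh1l2. Of the 3 markers of highest mean CPM per marker list that the rule also names, and of the genes of smallest p, some are left out of the text. A result of the folate cycle list is not reported here. Shared 50-base stretches and strands come from GENCODE M21, and promoters from RefSeq, both on GRCm38. CCAAT was added after the windows had been read. Alternatives were other tests, scalings, filters, prior counts and thresholds, and leaving out each library.

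The fit was checked on simulated counts with known fold changes. At the spread estimated from these data, the adjusted threshold missed every 2-fold change and most 4-fold and 8-fold changes. It found most 16-fold changes, and there were 10 false calls.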

Additional observations from a re-analysis of the deposited data

How the results depend on the processing

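The log2 fold change of Aldh1l2, whose direction its choice fixes, was 6.15 with a prior count of 2 and ran from 6.47 without Mll5+/- replicate 2 to 7.72 without Mll5+/- replicate 3. Without WT replicate 2 all WT counts are 0, so no fold was taken. The count of genes past the threshold was 0 in edgeR, 29 with DESeq2 and 0 to 2 with a library left out (1 without Mll5+/- replicate 2, and 2 without Mll5+/- replicate 3, WT replicate 1 or WT replicate 2). The genes called with a library left out held no member. Members without overlap numbered 1 to 3 with a library left out (3 without Mll5+/- replicate 2), where 17.2% to 21.1% of all tested genes had no overlap. Members with a positive log2 fold change, Aldh1l2 among them, numbered 4 to 6, with 4 under limma-voom. Wider pathway genes under an unadjusted p of 0.05 numbered 4 to 7 with a library left out, and 1 had p under 0.01.

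Of the 7 partners, 5 changed sign under at least 1 alternative. Mthfd1 ran from -0.28 to 0.96, Mthfd1l from -0.45 to 1.01, Phgdh from -0.29 to 0.06, Psat1 from -0.22 to 0.95 and Shmt2 from -1.33 to 1.66. Slc25a32 overlapped between the genotypes at plain totals and at library sizes without mitochondrial and the 20 most abundant genes. Mthfd2 stayed negative and Shmt1 positive. The cause was not tested. No paired analysis was possible because the replicate numbers follow sample order only. Members at a few CPM rest on 8 to 619 counts per library outside Aldh1l2 and Phgdh, and the median SE of a log2 fold change over all tested genes was 0.63, which limits what could be detected.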
